A study of Mus musculus with 10 samples.

Results

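Fibroblast and myofibroblast marker RNA was examined in whole tumors through 10 genes: Acta2, Tagln, Fap, Pdgfra, Pdgfrb, Pdpn, Postn, Thy1, Dcn and Lum. They were chosen by symbol as markers of cancer-associated fibroblasts, and all 10 were found by their Ensembl identifiers among the 37417 genes of the count table. The tumors were subcutaneous (s.c.) tumors of Panc02, a mouse pancreatic cancer cell line, grown in the flank of wild-type C57BL/6J mice aged 12 weeks and collected at day 16. In 5 tumors (sgCda) the injected cells carried a guide RNA against Cda, which encodes cytidine deaminase, and in 5 (sgNT) a nontargeting guide. Both kinds of Panc02 cell carried the same doxycycline-inducible Cas9, and guide-carrying cells were selected with puromycin. Host cells had an intact Cda gene in both groups. Groups follow the sample titles, and the titles number the tumors 1 to 5 in each group.

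Fibroblasts in a tumor build the collagen-rich matrix around cancer cells, and several states are usually told apart. Myofibroblasts carry contractile proteins such as alpha smooth muscle actin, matrix-producing fibroblasts secrete collagens and matricellular proteins, and inflammatory fibroblasts release cytokines. None of the 10 genes belongs to fibroblasts alone: Acta2 and Tagln also mark smooth muscle and pericytes, Pdgfrb marks pericytes, Pdpn marks lymphatic endothelium, and Thy1 is made by mouse T cells. RNA of a whole tumor gives the average over all its cells, so fewer cells of a type and less RNA per cell cannot be told apart. Which cells of these tumors made each transcript was not measured, and the injected Panc02 cells are among the possible sources.

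Gene counts per tumor ranged from 28051907 to 39484964, and 15299 genes passed the filter on low counts. Levels are given in CPM, the counts of a gene relative to the library size after scaling by trimmed mean of M values (TMM). The first principal component of the tested genes held 40.7% of the variance and had sgCda tumor 3 at 58.3 and sgCda tumor 4 at -56.4, at opposite ends and apart from their own group. Marker RNA of skeletal muscle ranged from 5.19 to 1739 summed CPM and was highest in sgCda tumor 3. Fold changes that moved most when 1 of these tumors was left out are also given without it. Cda itself, the check of the labels, read 10.1, 11.7, 12.8, 14.7 and 11.1 CPM in sgNT tumors 1 to 5 and 8.34, 8.43, 12.1, 7.47 and 12.5 CPM in sgCda tumors 1 to 5. The groups overlapped (log2 fold change -0.30, SE 0.17, unadjusted p = 0.0963 by edgeR). The fold change was -0.39 without sgCda tumor 3 (unadjusted p = 0.0376) and -0.22 without sgCda tumor 4 (unadjusted p = 0.205). Leaving out 1 tumor at a time gave -0.41 to -0.22. An RNA count of a whole tumor does not show whether the guide cut the gene in the cancer cells.

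The marker genes did not separate sgCda from sgNT tumors. By edgeR's quasi-likelihood test, 0 of the 10 had a Benjamini-Hochberg adjusted p under 0.05 over all genes, where 0.0% of the 15299 genes tested did. At an unadjusted p under 0.05 the count was 0 of 10 against 382 genes (2.5%). In no marker gene did the groups fail to overlap, against 92 genes (0.601%) overall. The log2 fold change of sgCda against sgNT was below 0 for 8 marker genes and above 0 for 2 (Fap and Thy1), with a median of -0.14, beside a median of 0.0078 over all genes tested, of which 52.9% were above 0. The smallest unadjusted p among the 10 was 0.305, for Acta2, and the adjusted p was 0.9996 for each. DESeq2 and limma-voom also called 0 genes of the 10 and 0 overall. Leaving out sgCda tumors 3 and 4 together moved the median of the 10 to 0.042.

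**Figure D1:**
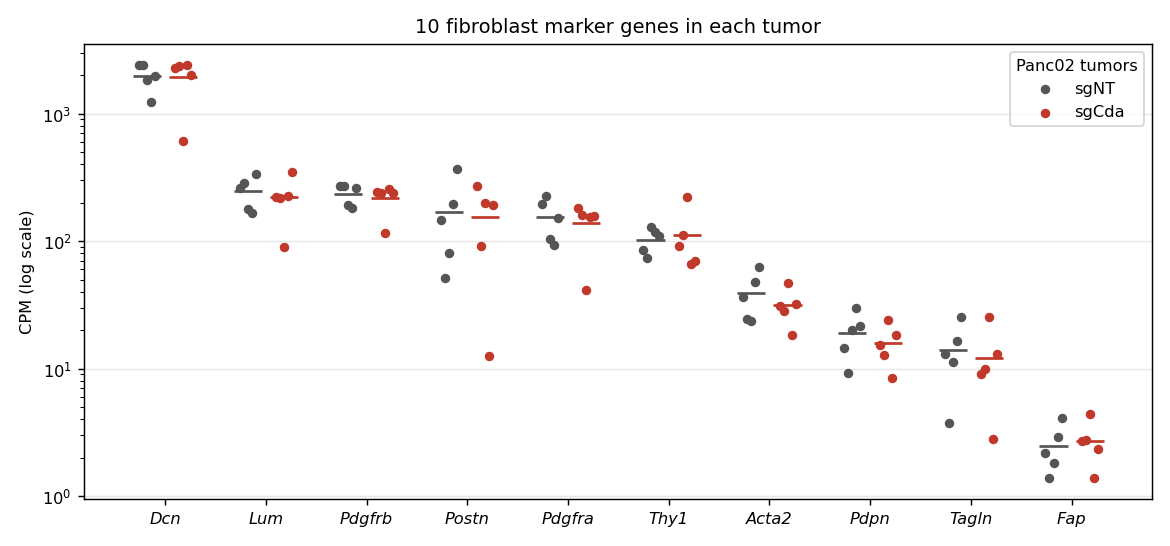
CPM of the 10 marker genes (log axis) in each of the 5 sgNT and 5 sgCda tumors. Each point is a tumor and each line a group mean. The groups overlapped for all 10 genes, and single sgCda tumors lay low for Dcn, Pdgfra and Pdgfrb (tumor 3) and for Postn and Tagln (tumor 4).

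Levels of different genes were compared per length of annotated exon, as CPM per kilobase. On this scale Dcn was the highest of the 10 with a mean of 334 over the 10 tumors, rank 104 of the genes tested. Lum followed at 95.5, then Pdgfrb at 41.4, Thy1 at 35.8, Postn at 18.5, Acta2 at 16.0, Pdgfra at 14.6, Pdpn at 9.59, Tagln at 6.55 and Fap at 0.460. Dcn exceeded Lum and Lum exceeded Pdgfrb in 10 of 10 tumors, and Tagln exceeded Fap in 10 of 10 with ranges that did not overlap. Other neighbours changed places between tumors: Pdgfrb was above Thy1 in 7 of 10 tumors, Postn above Acta2 in 6 and Acta2 above Pdgfra in 4. Their order is therefore not settled beyond the spread between tumors. The 10 genes together took 0.141% to 0.346% of the counts assigned to genes, and Dcn gave 67.0% of that. A sum over the 10 is thus largely a reading of Dcn.

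**Figure D2:**
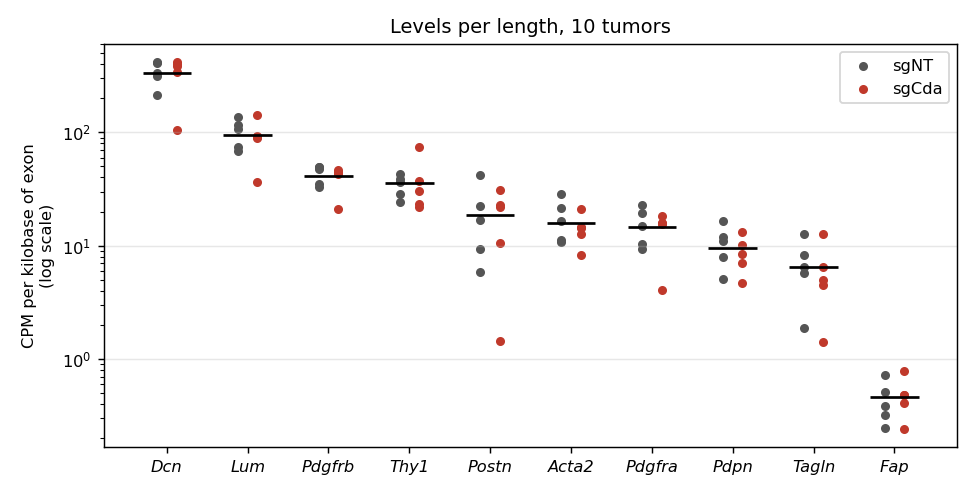
CPM per kilobase of annotated exon (log axis) of the 10 marker genes, ordered by their mean over 10 tumors (black lines). Points are tumors, grey for sgNT and red for sgCda. Dcn lay at 334 and Fap at 0.460, with overlapping ranges in between.

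The platelet-derived growth factor receptors came first by role. They are receptor tyrosine kinases of mesenchymal cells, the alpha receptor typical of fibroblasts and the beta receptor shared with pericytes. Pdgfra (ENSMUSG00000029231, chromosome 5, 75152292 to 75198215, plus strand, GRCm38) read 194, 228, 104, 93.3 and 151 CPM in sgNT tumors 1 to 5, and 183, 160.1, 41.0, 155 and 159 CPM in sgCda tumors 1 to 5. Most sgCda tumors sat together inside the sgNT range, and tumor 3 lay below every other tumor. The log2 fold change was -0.14 (SE 0.36, 95% interval -0.94 to 0.66, unadjusted p = 0.706). Without sgCda tumor 3 it was 0.093, on the other side of 0.

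Pdgfrb (ENSMUSG00000024620, chromosome 18, 61045150 to 61085061, plus strand) read 269, 269, 193, 181 and 262 CPM in the sgNT tumors and 243, 239, 117, 257 and 237 CPM in the sgCda tumors. The same sgCda tumor was lowest, and the other sgCda values again fell within the sgNT range. Its interval was the narrowest of the 10 (log2 fold change -0.11, SE 0.20, interval -0.55 to 0.34, unadjusted p = 0.614), so a fold outside 0.682 to 1.27 lies beyond it. Pdgfra lies with a microRNA gene, Mir7025, on its own strand and 2 predicted genes, Gm42802 and Gm42803, on the other. By default HTSeq leaves out reads that overlap more than 1 gene, and its strand setting was not given, so the Pdgfra count is uncertain to that extent.

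Decorin and lumican are small leucine-rich proteoglycans that bind collagen fibrils, and their genes are close together on chromosome 10. Dcn (ENSMUSG00000019929, 97479609 to 97518143, plus strand) read 2411, 2420.2, 1823, 1240.3 and 1961 CPM in sgNT tumors 1 to 5 and 2268, 2345, 614, 2422 and 1999 CPM in sgCda tumors 1 to 5. The values clustered high except in sgNT tumor 4 and, furthest down, sgCda tumor 3. The difference between the groups was -0.031 on the log2 scale (SE 0.32, interval -0.74 to 0.68, unadjusted p = 0.926), the nearest to 0 of the 10. Without sgCda tumor 3 it read 0.20.

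Lum (ENSMUSG00000036446, 97565128 to 97572703, plus strand) read 261, 287, 180.0, 167 and 336 CPM in the sgNT tumors and 223, 219, 89.5, 226 and 349 CPM in the sgCda tumors. It was lowest in sgCda tumor 3 as well, but tumor 5 was the highest of its group in both arms. For Lum the log2 fold change was -0.15 (SE 0.31, interval -0.82 to 0.52, unadjusted p = 0.629).

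The contractile markers follow. Acta2, alpha smooth muscle actin, is the usual myofibroblast marker (ENSMUSG00000035783, chromosome 19, 34241090 to 34255590, minus strand). It read 36.5, 24.6, 23.7, 47.7 and 62.9 CPM in sgNT tumors 1 to 5 and 31.2, 28.1, 46.8, 18.2 and 32.2 CPM in sgCda tumors 1 to 5. The sgNT tumors held the highest value and sgCda tumor 4 the lowest, with the remainder intermixed. Acta2 had the lowest log2 fold change of the 10, -0.32 (SE 0.30, interval -0.98 to 0.33, unadjusted p = 0.305). The sgNT mean of 39.1 CPM was exceeded by 1 of 5 sgCda tumors and, among the sgNT tumors, only by tumors 4 and 5. Without sgNT tumor 5 the log2 fold change was -0.082. Actin genes share long stretches of sequence, and reads with more than 1 place are dropped by HTSeq by default, so the Acta2 count is uncertain.

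Tagln encodes transgelin, an actin-binding protein of smooth muscle and myofibroblasts (ENSMUSG00000032085, chromosome 9, 45929619 to 45936058, minus strand). It read 13.0, 3.73, 11.3, 16.6 and 25.4 CPM in the sgNT tumors and 9.04, 9.93, 25.3, 2.80 and 13.0 CPM in the sgCda tumors. Each group held a tumor near 25 CPM and a tumor below 4. The log2 fold change of -0.22 (SE 0.54, interval -1.41 to 0.96, unadjusted p = 0.689) turned to 0.11 without sgNT tumor 5 and to 0.034 without sgCda tumor 4. Tagln overlaps Pcsk7 and a predicted gene, Gm48529, on the opposite strand.

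Periostin is a matricellular protein made by activated fibroblasts. Its gene Postn (ENSMUSG00000027750, chromosome 3, 54361109 to 54391037, plus strand) read 147, 51.5, 81.1, 197 and 367 CPM in sgNT tumors 1 to 5 and 270.3, 92.1, 199.7, 12.5 and 193 CPM in sgCda tumors 1 to 5. It ran from 354 to 14608 counts, a 29.3-fold span of CPM, the widest of the 10. Its SD over the tumors, 1.42 on the log2 scale, was at percentile 98.8 of the genes tested. The log2 fold change was -0.14 with a correspondingly wide interval of -1.63 to 1.35 (SE 0.68, unadjusted p = 0.843). It read 0.36 without sgNT tumor 5, 0.0040 without sgCda tumor 2 and 0.16 without sgCda tumor 4.

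Fap, fibroblast activation protein, is a serine protease of the cell surface (ENSMUSG00000000392, chromosome 2, 62500943 to 62574075, minus strand). It read 2.19, 1.39, 1.83, 2.92 and 4.12 CPM in the sgNT tumors and 2.71, 2.75, 4.42, 1.38 and 2.34 CPM in the sgCda tumors, from only 39 to 164 counts a tumor. Both groups covered nearly the same span. Between the groups Fap differed by 0.13 on the log2 scale (SE 0.34, interval -0.63 to 0.88, unadjusted p = 0.718), and -0.12 without sgCda tumor 3 or -0.022 without sgNT tumor 2.

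Podoplanin and Thy-1 are surface glycoproteins used to sort fibroblasts. Pdpn (ENSMUSG00000028583, chromosome 4, 143267431 to 143299564, minus strand) read 14.4, 9.26, 19.9, 29.8 and 21.7 CPM in the sgNT tumors and 15.3, 12.8, 24.1, 8.50 and 18.5 CPM in the sgCda tumors. The values of the groups interleaved, and 1 of 5 sgCda tumors was above the sgNT mean. The log2 fold change was -0.27 (SE 0.32, interval -0.97 to 0.44, unadjusted p = 0.424). It stayed below 0 under each of the 20 alternatives tried, as that of Acta2 did, but its size depended on single tumors. Leaving out 1 tumor gave -0.47 to -0.050 for Pdpn, the latter without sgNT tumor 4. For Acta2 it gave -0.51 to -0.082, the latter without sgNT tumor 5.

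Thy1 (ENSMUSG00000032011, chromosome 9, 44043384 to 44048579, plus strand) read 86.0, 73.3, 128, 117 and 109 CPM in sgNT tumors 1 to 5 and 91.0, 111, 223, 66.0 and 69.3 CPM in sgCda tumors 1 to 5. Here sgCda tumor 3, the lowest for the receptors and proteoglycans, was the highest of all, and sgCda tumors 4 and 5 were the lowest. Between the groups Thy1 differed by 0.12 on the log2 scale (SE 0.31, interval -0.57 to 0.81, unadjusted p = 0.702), and it was -0.29 without sgCda tumor 3.

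**Figure D3:**
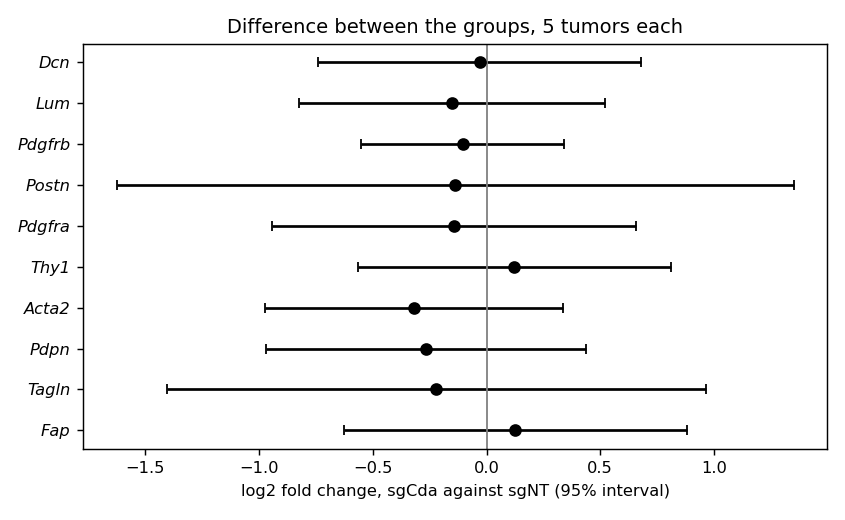
Log2 fold change of sgCda against sgNT (x axis) with its 95% interval for the 10 marker genes, from edgeR's quasi-likelihood fit with 5 tumors a group. All 10 intervals crossed 0. Pdgfrb had the narrowest, -0.55 to 0.34, and Postn the widest, -1.63 to 1.35.

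The larger differences were between tumors of the same group. All 10 marker genes lay in the upper part of the distribution of SDs over tumors, from percentile 76.0 (Pdgfrb) to 98.8 (Postn) of the genes tested. Of the 10, 4 had their lowest value in sgCda tumor 3 (Dcn, Lum, Pdgfra and Pdgfrb) and the other 6 in sgCda tumor 4, where 22.6% and 22.7% of all genes tested had their lowest value. In sgCda tumor 4 the gene Dcn stood at its highest of all tumors, 2422 CPM, while Postn stood at its lowest, 12.5 CPM. In sgCda tumor 3 the direction was the opposite for these genes, with Dcn at 614 CPM and Postn at 199.7 CPM.

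The genes were then set out as a Dcn group (Dcn, Lum, Pdgfra, Pdgfrb) and the remaining 6. This division was made after the values were seen, and is a description. Within the Dcn group 6 of 6 pairs had a positive Pearson's r over the 10 tumors, from 0.83 to 0.98. Within the other 6 genes 15 of 15 pairs were positive, from 0.43 to 0.90. Between them 24 of 24 pairs were negative, from -0.87 to -0.019. By permutation, 23 of all 45 pairs had an adjusted p under 0.05, 5 of them negative, namely Thy1 with each gene of the Dcn group and Pdpn with Dcn. Leaving out sgCda tumor 3 reduced the 23 pairs to 11. Without that tumor all 6 and all 15 pairs inside the groups kept a positive r, and 20 of the 24 pairs between them kept a negative one, with a median of -0.36 in place of -0.52. The mean log2 CPM of the Dcn group ran from 6.99 to 8.65 in sgCda and 7.93 to 8.83 in sgNT tumors, and that of the other 6 genes from 3.17 to 5.40 and 3.70 to 5.41, so that both overlapped between the groups.

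**Figure D4:**
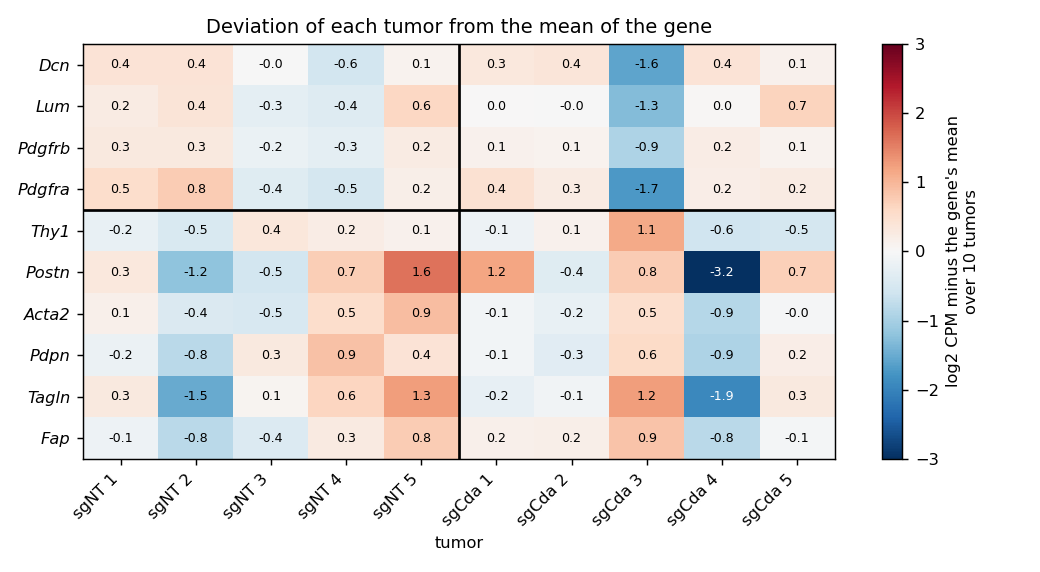
Log2 CPM of each marker gene in each tumor minus the mean of the gene over the 10 tumors (color, with the value printed), sgNT left and sgCda right of the vertical line. The 4 genes above the horizontal line had their lowest value in sgCda tumor 3 and the 6 below it in sgCda tumor 4.

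Of 9 relations between marker genes or with other cell types' markers, 5 had an adjusted permutation p under 0.05. Acta2 and Tagln, both contractile, moved together (Pearson's r = 0.88, adjusted permutation p = 0.00156, Spearman's rho = 0.89, adjusted p = 0.00508, n = 10 tumors), with r = 0.77 once sgNT tumor 5 and sgCda tumor 4 were left out. Pdgfra and Pdgfrb moved together (r = 0.98, adjusted permutation p = 0.00104, rho = 0.81, adjusted p = 0.0167, and r = 0.85 without sgCda tumor 3 and sgNT tumor 4). For Dcn and Lum r was 0.83 (adjusted permutation p = 0.0189) but rho was 0.53 (adjusted p = 0.217). Without the same pair of tumors r was -0.045, and the relation of these neighbouring genes rested on those tumors, and without sgCda tumor 3 alone it was 0.46. Deviations from the group means gave nearly the same r for these 3 pairs (0.88, 0.98 and 0.83).

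Thy1 followed the T cell markers. Its r with the mean log2 CPM of 9 T cell genes (among them Cd3d, Cd3e, Cd3g, Cd2 and Lck) was 0.94 (adjusted permutation p = 0.00054, rho = 0.94, adjusted p = 0.00198), 0.84 without sgCda tumors 3 and 4, and between 0.88 and 0.96 when 1 tumor was left out at a time. With the mean of the other 9 marker genes its r was 0.13 (adjusted permutation p = 0.884, rho = -0.0061, adjusted p = 1). The difference between these correlations was not tested. Thy1 was not set against the scores of other cell types, so the relation is not shown to be particular to T cells. The macrophage score was also highest in sgCda tumor 3 (8.45) and lowest in sgCda tumor 4 (7.92), as Thy1 was. The mean of the other 9 pools genes that Thy1 moved with and genes that it moved against. Its r was -0.87 to -0.82 with the genes of the Dcn group and 0.43 (Postn) to 0.71 (Fap) with the remaining genes. Without sgCda tumor 3 these ran from -0.66 to -0.55 and from 0.44 to 0.68. All 9 T cell genes were tested and 0 called between the groups, and their summed level ran from 227 to 355 CPM in sgNT and 171 to 497 CPM in sgCda tumors, highest in sgCda tumor 3, where Thy1 was highest too.

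Acta2 correlated with the mean of 11 smooth muscle and pericyte genes (r = 0.77, adjusted permutation p = 0.0189, rho = 0.81, adjusted p = 0.0167, and r = 0.67 without sgNT tumor 5 and sgCda tumor 4). Without sgCda tumor 4 alone the adjusted permutation p was 0.0564 at r = 0.72. The 11 genes did not move as one. In sgNT tumor 2 their mean was lowest (1.95 log2 CPM) while their summed level was highest (393 CPM). In sgCda tumor 3 the mean was 2.92 and the sum was lowest (272 CPM). The mean thus does not stand for the more abundant genes of the list. Pdpn with the macrophage markers gave r = 0.51 (adjusted permutation p = 0.202, rho = 0.43, adjusted p = 0.323, and r = -0.11 without sgCda tumor 4 and sgNT tumor 2). The mean of the 10 marker genes had r = -0.023 with the skeletal muscle markers (adjusted permutation p = 0.951, rho = -0.055, adjusted p = 1, and r = 0.11 without sgCda tumor 4 and sgNT tumor 5). With the carcinoma epithelial markers it had r = -0.10 (adjusted permutation p = 0.884, rho = -0.0061, adjusted p = 1, and r = 0.22 without those tumors). This mean pools the Dcn group with the remaining genes, which were negatively correlated with it, so a relation of either part can be hidden. Neither part was set against these scores. With the skeletal muscle score as a covariate the log2 fold changes of Dcn, Lum, Pdgfra and Pdgfrb changed sign, as did those of Fap and Thy1.

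**Figure D5:**
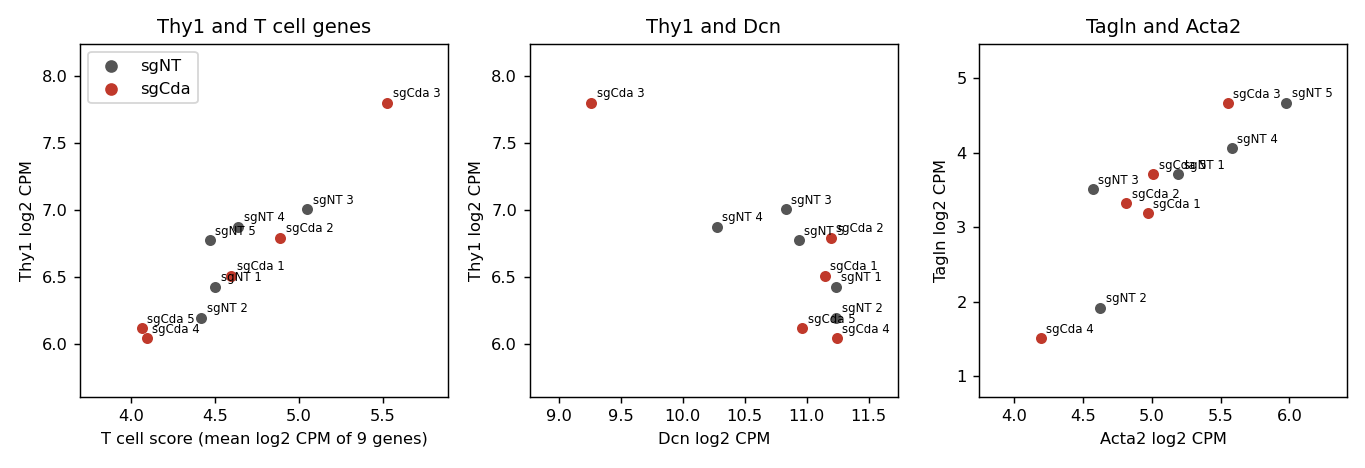
Thy1 against the T cell score (left), Thy1 against Dcn (middle) and Tagln against Acta2 (right), all in log2 CPM, with 1 point a tumor (grey sgNT, red sgCda). Thy1 rose with the T cell score (r = 0.94) and sgCda tumor 3 lay furthest out for both. The Thy1 and Dcn panel shows the same tumor alone at the low end of Dcn.

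Promoter sequence was looked up for the genes that moved together. RefSeq windows on GRCm38.p6, from 250 bases before to 50 bases after an annotated start, were at hand for 4 of the 10 genes (Acta2, Pdgfra, Pdpn and Postn, the last with 2 starts). Shown are Acta2 and Postn of the larger group, the latter at the start that holds the motif marked below, and Pdgfra of the Dcn group. The first 2 covaried (r = 0.85), while r of Pdgfra with Acta2 was -0.39 and with Postn -0.22 (adjusted permutation p = 0.328 and 0.521). Capitals mark TATATAA, a form of the TATA box picked after the sequences were read and searched on both strands. It starts at base 9 of the annotated transcript in Acta2 and at position -28 in Postn, and 3.24% of 32851 RefSeq promoter windows hold it. The windows are chr19:34255324-34255623 (Acta2, minus strand), chr3:54360857-54361156 (Postn, plus strand) and chr5:75152001-75152300 (Pdgfra, plus strand).
Acta2: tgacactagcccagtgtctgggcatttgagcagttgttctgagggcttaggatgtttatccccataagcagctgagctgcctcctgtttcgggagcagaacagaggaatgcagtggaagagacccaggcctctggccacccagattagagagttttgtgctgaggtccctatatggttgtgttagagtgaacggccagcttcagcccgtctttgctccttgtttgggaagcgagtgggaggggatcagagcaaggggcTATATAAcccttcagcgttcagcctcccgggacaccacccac
Postn: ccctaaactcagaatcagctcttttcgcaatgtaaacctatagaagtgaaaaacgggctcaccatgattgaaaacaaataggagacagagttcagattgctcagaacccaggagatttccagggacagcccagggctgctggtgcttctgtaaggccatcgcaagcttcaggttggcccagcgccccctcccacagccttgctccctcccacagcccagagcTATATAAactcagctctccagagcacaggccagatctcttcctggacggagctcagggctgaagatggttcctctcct
Pdgfra: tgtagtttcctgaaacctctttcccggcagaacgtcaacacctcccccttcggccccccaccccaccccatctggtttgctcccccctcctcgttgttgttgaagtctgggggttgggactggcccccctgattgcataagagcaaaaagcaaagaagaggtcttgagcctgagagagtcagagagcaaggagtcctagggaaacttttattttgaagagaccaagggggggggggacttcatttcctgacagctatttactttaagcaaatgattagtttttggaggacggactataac
The Pdgfra window has no TATATAA, which says only that these letters are not in it. Nor do the windows of Pdpn and of the other Postn start, which are not shown. Pdpn is of the larger group and had r = 0.77 with Acta2 and r = 0.76 with Postn. The motif thus did not mark the larger group as a whole. The strict CArG box, the motif of serum response factor, was in 1.63% of all windows and in none of the 5 windows of these 4 genes. The strict form allows only A or T between CC and GG, and looser forms were not searched. The Acta2 window holds ccctatatgg and ccttgtttgg, which have a C or a G in the middle and were not counted. The search therefore does not show that a window lacks sites of this factor.

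Other genes of the same pathways were read from 7 lists, and edgeR called 0 genes in any of them between sgCda and sgNT at an adjusted p under 0.05 or at an unadjusted one. In the contractile list of 10 genes the median log2 fold change was -0.048. Tpm2, a tropomyosin, was the highest at 0.48 (SE 0.34, unadjusted p = 0.186) and was at 223 CPM in sgCda tumor 3 against 55.0 to 108 CPM elsewhere. Its value was 0.021 without that tumor and 0.15 with the skeletal muscle score as a covariate. Cnn1, a calponin of smooth muscle, was the lowest at -0.33 (SE 0.58, unadjusted p = 0.583) from 4 to 38 counts, and at -0.78 without sgCda tumor 3 or -0.10 without sgCda tumor 4.

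Of the 11 genes around TGF-beta and serum response factor, which drive myofibroblast genes, 10 were tested (Myocd had too few counts), with a median of -0.028. Tgfb2, a TGF-beta ligand, stood at 0.37 (SE 0.19, unadjusted p = 0.0838), the most positive of them, and at 0.22 without sgCda tumor 3 or 0.10 without sgCda tumors 3 and 4. Among 6 genes of the PDGF axis the median was -0.026. Pdgfa, a ligand of the alpha receptor, was the most positive at 0.23 (SE 0.11, unadjusted p = 0.0700), with 101 to 117 CPM in the sgNT and 109 to 171 CPM in the sgCda tumors, and it stood at 0.11 without sgCda tumor 4. Pdgfd, a ligand of the beta receptor, was the most negative at -0.29 (SE 0.31, unadjusted p = 0.371), or -0.46 without sgCda tumor 3 and -0.14 without sgCda tumor 4.

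In the proteoglycan family of Dcn and Lum 8 of 10 genes were tested, with a median of -0.049. Podn, podocan, stood at 0.055 (SE 0.29, unadjusted p = 0.853). Fmod, fibromodulin, stood at -0.25 (SE 0.75, unadjusted p = 0.746) with 2 counts in sgCda tumor 4 and up to 213 elsewhere. Of the 8, 4 had their lowest value in sgCda tumor 3 and 2 in sgCda tumor 4, against 22.6% and 22.7% of all genes tested.

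The 14 matrix genes of fibroblasts had a median of -0.14, 12 below and 2 above 0. Fstl1, a secreted glycoprotein, was the most positive at 0.17 (SE 0.54, unadjusted p = 0.759) and Col12a1, a fibril-associated collagen, the most negative at -0.33 (SE 0.28, unadjusted p = 0.255). Of the 14, 11 had their highest value in sgNT tumor 5, against 7.12% of all genes tested, and 7 their lowest in sgCda tumor 4, against 22.7%. Among the 10 marker genes 3 were highest in sgNT tumor 5 (Acta2, Tagln and Postn). Col1a2, a chain of type I collagen that was picked after its values were seen, read 515, 162, 199, 815 and 1264 CPM in sgNT tumors 1 to 5 and 842, 312, 1049, 23.0 and 773 CPM in sgCda tumors 1 to 5. Dcn was at its own highest in sgCda tumor 4, where Col1a2 was lowest.

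Among 12 genes of inflammatory fibroblasts, 11 were tested with a median of -0.073. Clec3b, tetranectin, was at 0.41 (SE 0.38, unadjusted p = 0.300) and Has1, a hyaluronan synthase, at -0.48 (SE 0.44, unadjusted p = 0.299), or -0.84 without sgCda tumor 3. The 16 paralogs and partners of the marker proteins had 14 tested and a median of -0.078. The cardiac actin gene Actc1 was at 2.44 (SE 1.13, unadjusted p = 0.0535) from 0 to 207 counts, and the tumor with 207 was sgCda tumor 3, which also held the most skeletal muscle marker RNA. Without sgCda tumor 3 the Actc1 value was 0.65 (unadjusted p = 0.475), with the skeletal muscle score as a covariate 0.66 (unadjusted p = 0.268) and by limma-voom 1.23 (unadjusted p = 0.406). Itgb3, the beta chain of an integrin that binds periostin, was at -0.18 (SE 0.14, unadjusted p = 0.234).

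By the mean log2 CPM of the 10 marker genes, the 6 most similar genes over the 10 tumors were Mmp3 (r = 0.97), Itga11 (r = 0.96), Galnt16 (r = 0.96), Fndc1 (r = 0.96), Tmeff2 (r = 0.96) and Elk1 (r = 0.95). They were picked as the highest of all genes tested, and no test was made. Mmp3 encodes stromelysin, a matrix protease, and Itga11 a collagen-binding integrin chain. For the Dcn group alone the most similar were Kirrel3, Samd14, Ltbp4, Smg6, Tns1 and Rtn4rl1 (r from 0.98 to 0.99), and for the other 6 genes Mxra7, Gpx7, Pcdh7, Ncam1, Flrt2 and ENSMUSG00000091793 (r from 0.98 to 0.99).

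Markers of other cells that a s.c. tumor can hold were read beside these results. Over 9 such lists edgeR called 0 genes, and 2 had an unadjusted p under 0.05, Flt4 of lymphatic endothelium (lower in sgCda, unadjusted p = 0.0109) and Epcam of epithelium (higher in sgCda, unadjusted p = 0.0305). Over all genes tested 0.954% were lower and 1.54% higher at that limit. Summed marker CPM overlapped between sgNT and sgCda in each list, for example at 318 to 393 against 272 to 373 for smooth muscle and pericytes, 102 to 154 against 87.6 to 145 for endothelium, 5079 to 7806 against 4844 to 8295 for macrophages and 592 to 924 against 569 to 1016 for carcinoma epithelium. Lymphatic markers, 4 of 5 found in the table and 2 tested, summed to 4.99 to 7.85 and 3.58 to 14.1 CPM. Adipocyte markers ran from 78.1 to 251 and from 69.4 to 798 CPM, and keratinocyte markers from 7.08 to 22.6 and from 5.62 to 9.14 CPM, with 2 of 7 tested. Their part in the differences between tumors was not tested, apart from the fit with skeletal muscle as a covariate, in which 0 marker genes were called.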

How the data were processed

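The authors extracted RNA from tumor tissue with TRIzol, made stranded libraries of polyadenylated RNA, read the first bases of each fragment and aligned them to GRCm38 (mm10) with TopHat and Bowtie. The processing notes in the labels also list FastQC 0.11.5 and HTSeq; strand setting and annotation release were not given in the sources used here. Values used are the raw gene counts the authors deposited, 1 column a tumor. The 5 HTSeq summary lines (47.5% of all counts) were left out of library sizes and tests. Labels give no batch.

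From these counts, genes were filtered with filterByExpr (minimum count 10, minimum total 15), scaled with TMM and tested with edgeR 4.0.16 (quasi-likelihood, R 4.3.3), with Benjamini-Hochberg adjustment over 15299 genes, no covariate and 5 tumors a group. Per-tumor depth of 28051907 to 39484964 counts makes 3 counts, the limit that a count of 0 allows, 0.0760 to 0.107 CPM (counting error only). List scores are means of log2 CPM (prior count 2). Relations used Pearson's r and Spearman's rho with two-sided permutation p (100000 resamples, scipy 1.17.1) over 9 relations and over 45 pairs of marker genes. The code was tested on simulated counts. Symbols were found for 32608 of 37417 identifiers, positions and exon lengths come from GENCODE M21 (GRCm38) and promoters from RefSeq (GRCm38.p6).

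The 10 genes and all lists were chosen with earlier results of these data known. Named genes are the 10, Cda, the most positive and most negative fold change of each list, and the 6 genes most like the mean of the 10; Col1a2 and the genes most like each subgroup were added after seeing values. A gene that this rule names is not reported here. Alternatives were DESeq2 1.42.0, limma 3.58.1 (voom, with and without sample weights), other scalings and filters, a replicate block, a skeletal muscle covariate and leaving out tumors. Tumors came from separate mice, so p values measure the spread between mice.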

Additional observations from a re-analysis of the deposited data

Results flagged for a closer look

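In 14 of 124 sets of 5 tumor values, 1 tumor lay further from the other 4 than Dixon's 95% limit (0.71 of the range for 5 values). Chance gives about 1 in 20, or 6.2, and the sets are not independent, since genes named for their likeness to a group share its pattern.

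In sgCda tumor 3, Dcn was low at 9.26 log2 CPM (the other 4 sgCda tumors 10.96 to 11.24), as were Pdgfra at 5.36 (7.28 to 7.52) and Pdgfrb at 6.87 (7.89 or above). The mean of Dcn, Lum, Pdgfra and Pdgfrb was 6.99 there (8.55 to 8.65 in the others). Of the genes most like that mean, Kirrel3 was at 6.75, Samd14 at 4.95, Ltbp4 at 7.21, Smg6 at 6.14, Tns1 at 7.25 and Rtn4rl1 at 4.21. In the same tumor skeletal muscle markers summed to 1739 CPM and T cell markers to 497 CPM, the highest of the 10 tumors. Their part in the low values was not tested.

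In sgCda tumor 4, the mean log2 CPM of the 10 marker genes was low at 5.34 (6.04 to 6.25 in the other sgCda tumors), as were Fstl1 at 4.41 (6.85 to 7.77) and Tmeff2 at -3.38 (-0.53 to 0.30). This library had the fewest assigned counts, 28051907, and the highest share of uniquely aligned reads that HTSeq gave to no annotated feature, 18.4% against 10.3% to 14.9% in the other tumors. The part of this in the low values was not tested. In sgNT tumor 4 the keratinocyte score was high at 2.65 (1.73 to 1.96).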

How the results depend on the processing

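Under the 20 alternatives the count of genes called stayed at 0, for marker genes too, and the smallest adjusted p of a marker gene was 0.819. No conclusion of equal levels follows, since intervals of the 10 genes reached from 0.324-fold to 2.55-fold. The median log2 fold change of the 10 stayed below 0 except without sgCda tumors 3 and 4 (0.042), with -0.25 to -0.024 when leaving out 1 tumor. Genes at an unadjusted p under 0.05 numbered 830 without the filter, 719 with limma-voom sample weights, 433 by DESeq2, 317 by limma-voom and 280 to 747 when leaving out 1 tumor (747 without sgCda tumor 3). Relations at an adjusted p under 0.05 numbered 4 to 5 of 9 and pairs of marker genes 11 to 26 of 45.

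Signs of 16 of the 30 named genes tabulated changed under some alternative, none past the threshold on either side, and the cause was not tested. Labels do not say whether same-numbered tumors belong together, and they were not treated as pairs. Same-numbered deviations correlated at -0.028, -0.024, 0.33, -0.43 and 0.34, with the own number closest for 2 of 5, which cannot settle it. With the replicate block in edgeR the only changed sign was that of Thy1 (-2.18e-05). In that fit 325 genes had an unadjusted p under 0.05 and none was called. With the skeletal muscle covariate the log2 fold change was -0.038 for Fap, 0.14 for Pdgfra, 0.032 for Pdgfrb, -0.19 for Thy1, 0.14 for Dcn, 0.050 for Lum and -0.0066 for Podn. Without sgCda tumors 3 and 4 it was 0.12 for Pdgfra, 0.026 for Pdgfrb, 0.13 for Postn, -0.19 for Thy1, 0.16 for Dcn, 0.099 for Lum, 0.12 for Mmp3, 0.0056 for Galnt16, 0.28 for Fndc1 and 0.011 for Elk1. With limma-voom sample weights it was 0.11 for Pdgfra, 0.36 for Postn, -0.12 for Thy1, 0.078 for Dcn, 0.27 for Mmp3, 0.033 for Itga11, 0.060 for Galnt16, 0.27 for Fndc1 and 0.00028 for Elk1, and without weights -0.0032 for Thy1.

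Leaving out 1 tumor gave -0.69 to 0.11 for Tagln, -0.12 to 0.39 for Fap, -0.28 to 0.093 for Pdgfra, -0.19 to 0.053 for Pdgfrb, -0.44 to 0.36 for Postn, -0.29 to 0.27 for Thy1, -0.16 to 0.20 for Dcn, -0.38 to 0.048 for Lum, -0.10 to 0.31 for Podn, -0.71 to 0.066 for Fmod, -0.13 to 0.47 for Fstl1, -0.65 to 0.29 for Mmp3, -0.77 to 0.18 for Itga11, -0.55 to 0.22 for Galnt16 and -0.34 to 0.38 for Fndc1. The r of Thy1 with the other 9 ran from -0.23 to 0.39, and those of the 10 with the skeletal muscle and carcinoma scores from -0.21 to 0.16 and from -0.29 to 0.10. Dcn with Lum lost its call without sgNT tumor 4 (r = 0.82) or sgCda tumor 3 (r = 0.46). Prior count and scaling by library totals changed no call of a relation. Low counts limit several named genes, Fap among the 10 (39 to 164 counts a tumor).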
